A study of Mus musculus with 13 samples.

Results

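Imprinted genes are genes of which 1 parental copy is kept silent. Here they are 39 genes in 18 imprinted loci, chosen by symbol from the known mouse imprinted clusters, and they are 39 of the 54532 genes in the count table. Their RNA was read in Yumm1.7 cells, a mouse cutaneous melanoma line, with and without 5-Aza-CdR (decitabine), a cytidine analog that traps DNA methyltransferases and so removes DNA methylation. Cells received DMSO, 5-Aza-CdR (1 μM, 72 h), the ADAR1 inhibitor ADAR1i-124 (10 μM, 12 h), or 5-Aza-CdR followed by the inhibitor (the combination). Total RNA was sequenced after removal of ribosomal RNA, and RNA digested with RNase I was precipitated with the J2 mAb, which binds double-stranded RNA, with the Z22 mAb, which binds the left-handed Z form, or with IgG. The labels of the precipitated combination libraries give no inhibitor dose (the study describes more than 1 dose in the combination), and the treatment behind the IgG library was not stated. All groups are 1 cell line, and each condition has 1 library, so no difference below has a replicate check and each compares libraries rather than conditions.

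At an imprinted locus a differentially methylated region, set in the egg or the sperm, carries DNA methylation on 1 parental copy for life, and the genes around it are read from the maternal or the paternal copy. DNMT1 with its partner UHRF1 copies this methylation at each cell division, and ZFP57 with TRIM28 protects it in the early embryo. Several loci make long noncoding RNAs (Airn, Kcnq1ot1, Meg3) that silence or replace their neighbours, and many of the protein products act in growth. The counts do not separate the parental copies, and fewer cells using a gene cannot be told apart from less RNA per cell.

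The 12 libraries used held 8167960 to 34571822 counts. Values are CPM (counts divided by the library total and scaled to 1e+06), and a log2 change is that of CPM + 0.5, a scale on which low genes change less than their counts do. Intervals in parentheses are exact 95% Clopper-Pearson intervals of the ratio of both counts, without the added 0.5 CPM, and cover counting error only. The total RNA library of the combination was left out, because its 1245894 counts fell on genes of the other strand. The Z22 library of DMSO stood apart from the other Z22 libraries, with 34.9% of its counts on the ribosomal-RNA-like gene Gm42418 against 10.6% to 15.8%, and the median of all genes was 1.06 higher on the log2 scale with 5-Aza-CdR in that pair. Among the melanocyte genes only Mitf was read above 1 CPM (9.68 to 33.1 CPM), while Tyr and Tyrp1 had no counts and Dct, Mlana and Sox10 stayed at or under 0.115 CPM. The Y chromosome genes Ddx3y, Kdm5d and Uty moved between libraries of the same cell line and did not follow the treatment labels. Eif2s3y, also on the Y chromosome, was read only in libraries given 5-Aza-CdR, at 2.02 CPM at most. The summed values of these genes are given beside the genes they moved with.

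The promoter windows of the members with the largest changes upward (Rasgrf1, Grb10) and downward (Commd1) in total RNA with 5-Aza-CdR are shown, since CG is the pair of bases that DNA methyltransferases act on. Each runs from 250 bases before to 50 after the gene start (RefSeq, GRCm38.p6). Grb10 and Commd1 have 2 such windows each, of which the 1 with the most CG is shown. The CG counts of these 2 genes are thus those of windows picked for CG. Capitals mark CG.
Rasgrf1, chr9:89909525-89909824, plus strand: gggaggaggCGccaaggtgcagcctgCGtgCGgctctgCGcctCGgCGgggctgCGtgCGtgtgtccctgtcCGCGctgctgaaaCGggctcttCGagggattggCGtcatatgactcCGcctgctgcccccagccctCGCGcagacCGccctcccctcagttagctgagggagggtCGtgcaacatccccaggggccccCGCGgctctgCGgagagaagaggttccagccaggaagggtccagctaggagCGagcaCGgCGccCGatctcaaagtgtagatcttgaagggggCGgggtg
Grb10, chr11:12037371-12037670, minus strand: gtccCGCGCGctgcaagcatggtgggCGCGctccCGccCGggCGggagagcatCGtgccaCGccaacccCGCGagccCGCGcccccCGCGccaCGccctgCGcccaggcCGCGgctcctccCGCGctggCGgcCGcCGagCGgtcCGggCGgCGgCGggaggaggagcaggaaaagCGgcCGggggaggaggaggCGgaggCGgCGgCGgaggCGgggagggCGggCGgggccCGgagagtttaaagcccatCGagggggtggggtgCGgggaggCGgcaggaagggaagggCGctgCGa
Commd1, chr11:22982235-22982534, minus strand: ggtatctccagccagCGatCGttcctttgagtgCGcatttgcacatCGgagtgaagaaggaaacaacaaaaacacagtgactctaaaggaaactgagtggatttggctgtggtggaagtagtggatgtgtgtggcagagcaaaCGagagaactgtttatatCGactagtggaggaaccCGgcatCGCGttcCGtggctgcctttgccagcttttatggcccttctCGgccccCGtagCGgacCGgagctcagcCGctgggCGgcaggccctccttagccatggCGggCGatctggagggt
The Rasgrf1 window held 26 CG, the Grb10 window 45 and the Commd1 window 18, against a median of 17 over the 32 members with a window and of 8 over 27025 windows of all genes. The hexamer TGCCGC, which ZFP57 binds when methylated, was searched on both strands. It lay 24 bases after the start of Grb10 and 9 bases after the start of Commd1, and it was not among the letters of the Rasgrf1 window. Of the 32 member windows 9 (28.1%) held it, and 3 of the 15 windows of members compared here, against 12.2% of all windows. The hexamer holds a CG itself, and the member windows hold more CG (median 17 against 8). The share was not set apart from this base content.

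In total RNA, 13 of the 18 imprinted genes that could be compared were higher with 5-Aza-CdR (53.0% of all genes were) and 5 were lower, and Rasgrf1 and Grb10 stood far above the rest. Of the 39 members, 18 had a mean of at least 1 CPM and entered the comparisons, and the other 21 were too low. A gene under 1 CPM in 1 library of a pair enters only through the other library, so the filter sets its direction. This holds for Rasgrf1 in total RNA, with 0.176 CPM with DMSO. Against DMSO it also holds for Rasgrf1 and Grb10 in J2 (0.376 CPM each with 5-Aza-CdR) and for Rasgrf1 in Z22 (0.367 CPM). The signal regulators Rasgrf1 and Grb10 were at least 4-fold higher (2 of 18, where 5.98% of all 14391 genes were), and no member was at least 4-fold lower (1.76% of all genes). At a 2-fold line, 7 members were higher (17.0% of all genes), which adds Peg3, Ppp1r9a, Blcap, Plagl1 and Inpp5f, and 0 were lower (8.96%). The median log2 change of the 18 was 0.52 (95% interval of the median −0.05 to 1.14), beside 0.06 over all genes.

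In J2 the comparison of 5-Aza-CdR with DMSO had 0 members at least 4-fold higher (3.02% of all genes) and 2 that were lower by as much (0.971%), and these 2 were Grb10 and Rasgrf1, the same genes that were highest in total RNA. At the 2-fold line, Peg10 and Herc3 were higher (2 of 18, beside 8.61%), and Grb10, Rasgrf1, Peg3, Commd1 and Airn were lower (5 of 18, beside 6%). The J2 median was −0.27, beside 0.06 over all genes. When 5-Aza-CdR was added to ADAR1i-124, no member in J2 passed the 4-fold line in either direction (5.33% of all genes were higher and 0.830% lower), 6 were at least 2-fold higher (14.3%) and 0 lower (5.64%). They were Plagl1 (1.96), Rasgrf1 (1.89), Peg3 (1.66), Impact (1.51), Grb10 (1.30) and Ppp1r9a (1.12), and all but Impact were also past the 2-fold line in total RNA. The median was 0.64, beside 0.11.

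In Z22 the comparison with DMSO had 6 members at least 4-fold higher (20% of all genes, which is 2737 genes) and Rasgrf1 lower by as much (0.926%), and at the 2-fold line 8 members were higher (52.1%) and 3 lower (4.10%). This is the pair with the DMSO library that stood apart, and its median of 0.85 lay below the all-gene median of 1.06. Centred on that median, Herc3 alone of the 18 was at least 4-fold higher (3.08% of all genes), and Rasgrf1, Grb10 and Peg3 were lower by as much (3 of 18, beside 4.56%). With ADAR1i-124 in both libraries, Plagl1 was the single member at least 4-fold higher in Z22 (3.11%), no member was at least 4-fold lower (1.70%), and the same 1 and 0 members passed the 2-fold line (9.91% and 6.30%). The median was 0.07, beside 0.00.

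**Figure D1:**
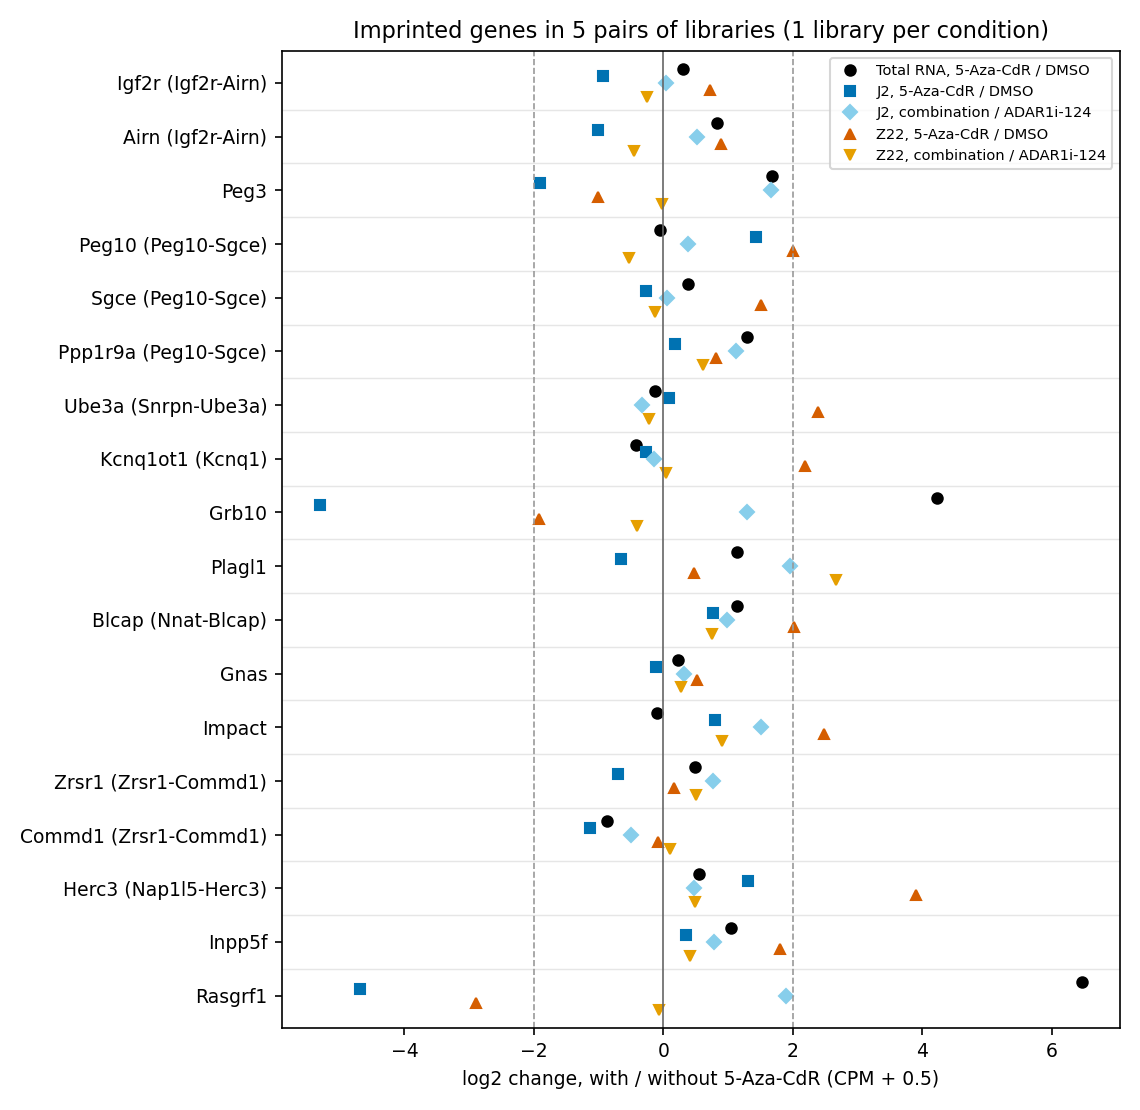
Log2 change (CPM + 0.5) of the 18 tested imprinted genes with against without 5-Aza-CdR, 1 point for each of the 5 pairs of libraries, with the locus in parentheses; dashed lines mark a 4-fold change. Blcap, Ppp1r9a, Herc3 and Inpp5f lie right of 0 in all 5 pairs, while Grb10 runs from −5.30 to 4.23 and Rasgrf1 from −4.68 to 6.46.

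The 5 pairs share no library. Blcap, Ppp1r9a, Herc3 and Inpp5f were higher with 5-Aza-CdR in all 5 pairs, which is 4 of 18 members, a share close to the 19.1% of all genes that did so. No member was lower in all 5 pairs (3.86% of all genes). For the same 4 members every library with 5-Aza-CdR was also above every library without it within total RNA, J2 and Z22, which held for 14.4% of all genes.

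Blcap encodes a small membrane protein, is a known target of A-to-I editing, and hosts the imprinted gene Nnat in an intron. In total RNA it had 34.3 CPM with DMSO, 69.4 with ADAR1i-124 and 75.9 with 5-Aza-CdR, a ratio of 2.21 to DMSO (2.02 to 2.43). In J2 it had 25.8 CPM with DMSO, 23.8 with the inhibitor, 44.4 with 5-Aza-CdR and 47.2 when both were given. Z22 gave 11.3, 29.5, 47.6 and 49.96 CPM for the same 4 treatments, and IgG had 29.5. The libraries given 5-Aza-CdR did not overlap with the others of their antibody. Its log2 change was 1.14 in total RNA, 0.77 and 0.98 in J2, and 2.02 and 0.75 in Z22.

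Ppp1r9a, at the Peg10 locus and mostly read from the maternal copy, encodes neurabin, a scaffold that holds protein phosphatase 1 on actin. It had 56.0 CPM in total RNA with DMSO, 34.1 with ADAR1i-124 and 138 with 5-Aza-CdR, a ratio of 2.47 (2.30 to 2.65). J2 gave 60.3 CPM with DMSO, 36.2 with the inhibitor, 68.7 with 5-Aza-CdR and 79.4 when both were given, and Z22 gave 44.9, 40.0, 79.1 and 61.3, with 24.8 in IgG. Each library with 5-Aza-CdR was above both libraries without it, for total RNA and for each antibody. The Z22 pair with DMSO was 0.81 higher as computed and −0.25 once centred on the median of all genes, so in that pair its direction turned with the scaling.

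Herc3, a HECT-domain protein whose intron holds the imprinted Nap1l5, had 21.98, 19.3 and 32.5 CPM in total RNA with DMSO, ADAR1i-124 and 5-Aza-CdR. In J2 it had 8.45 CPM with DMSO, 14.9 with the inhibitor, 21.7 with 5-Aza-CdR and 20.9 when both were given. In Z22 the DMSO library had 1.83 CPM from 16 counts, and the others had 20.4, 34.5 and 28.8, so its log2 change of 3.91 (3.51 to 5.06) rested on the library that stood apart. Beside ADAR1i-124 it was 0.49 (0.25 to 0.74) higher in Z22.

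Inpp5f, an inositol phosphatase with an imprinted short isoform, had 33.8, 36.6 and 70.3 CPM in total RNA, a ratio to DMSO of 2.08 (1.90 to 2.28) with 5-Aza-CdR. J2 gave 28.9, 26.0, 37.1 and 45.0 CPM with DMSO, the inhibitor, 5-Aza-CdR and the combination. Z22 gave 10.3, 26.1, 37.2 and 34.9 CPM in the same order. The counts are per gene, so the imprinted isoform was not read apart from the whole gene. Without the Z22 pair that holds the DMSO library standing apart, the count of members higher in every pair was also 4, beside 20.9% of all genes.

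**Figure D2:**
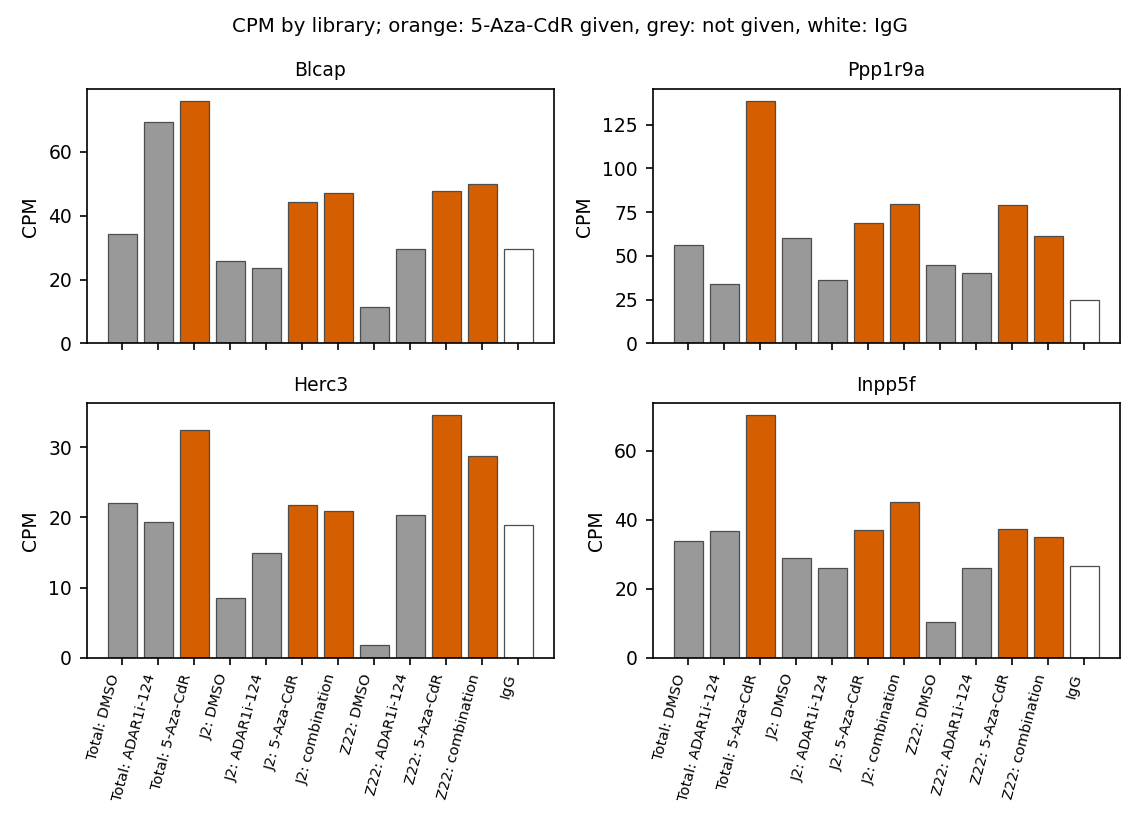
CPM of Blcap, Ppp1r9a, Herc3 and Inpp5f in the 12 libraries, 1 bar per library, each axis from 0. Orange bars are libraries given 5-Aza-CdR, grey bars those without it, and the white bar is IgG. For each gene the orange bars stand above the grey bars of the same kind of RNA, and the closest by ratio are those of Blcap in total RNA (75.9 CPM with 5-Aza-CdR and 69.4 with ADAR1i-124).

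Grb10 and Rasgrf1 had the widest spread of change over the 5 pairs among the members. Grb10 is an adaptor that restrains insulin and IGF receptors and is read from the maternal copy in most tissues. It had 1.88 CPM with DMSO in total RNA, 49.4 with ADAR1i-124 and 44.3 with 5-Aza-CdR, a ratio of 23.6 (16.6 to 34.6) for 5-Aza-CdR over DMSO. In J2 the DMSO library was the high one with 34.1 CPM, against 2.43 with the inhibitor, 0.376 with 5-Aza-CdR and 6.71 when both were given. Z22 held 7.91, 7.09, 1.71 and 5.25 CPM in the same order, and IgG 5.74. The log2 change with 5-Aza-CdR was thus 4.23 (4.05 to 5.11) in total RNA, −5.30 (−8.13 to −5.27) in J2 and −1.92 (−3.15 to −1.36) in Z22. Added to ADAR1i-124 it was 1.30 in J2 and −0.40 in Z22, and the range of 9.54 over the 5 pairs was wider than in 99.9% of all genes.

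Rasgrf1, a guanine nucleotide exchange factor that activates Ras and is read from the paternal copy, went the same way. Its counts in total RNA were 3 with DMSO, 274 with ADAR1i-124 and 2044 with 5-Aza-CdR, or 0.176, 15.6 and 59.1 CPM. The ratio of 5-Aza-CdR to DMSO was 335 (115 to 1627), its log2 change with the added 0.5 CPM was 6.46, the highest of the 18 members. J2 had 21.997 CPM with DMSO, 2.08 with the inhibitor, 0.376 with 5-Aza-CdR and 9.09 when both were given, so the DMSO library was again the high one. Z22 had 5.96, 6.001, 0.367 and 5.69 CPM, and IgG 3.98. The log2 change was −4.68 in J2 and −2.90 in Z22 against DMSO, and 1.89 in J2 and −0.07 in Z22 beside ADAR1i-124.

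Peg3, a paternally read zinc finger protein, had the same directions as Rasgrf1 against DMSO in total RNA, J2 and Z22, and beside ADAR1i-124 in J2. Its total RNA levels were 9.81 CPM with DMSO, 51.3 with ADAR1i-124 and 32.4 with 5-Aza-CdR, a ratio of 3.30 (2.803 to 3.91). In J2 it had 26.1 CPM with DMSO, 3.82 with the inhibitor, 6.62 with 5-Aza-CdR and 13.2 when both were given. In Z22 the DMSO library had the highest value of the 12, 70.9 CPM, and the others had 23.3, 35.01 and 22.8 CPM. Its change was 1.67 in total RNA, −1.90 and 1.66 in J2, and −1.01 and −0.02 in Z22.

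Plagl1, a paternally read zinc finger factor that slows the cell cycle, was low throughout with 6 to 136 counts. It had 1.23, 7.72 and 3.30 CPM in total RNA with DMSO, ADAR1i-124 and 5-Aza-CdR. J2 had 2.54, 0.417, 1.43 and 3.06 CPM and Z22 3.90, 0.955, 5.63 and 8.75 with DMSO, the inhibitor, 5-Aza-CdR and the combination. The combination was the highest library of both antibodies. Its log2 change beside ADAR1i-124 was 1.96 (1.62 to 4.41) in J2 and 2.67 (2.37 to 4.13) in Z22, and with 5-Aza-CdR against DMSO it was 1.13, −0.66 and 0.48 in total RNA, J2 and Z22.

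The high and low libraries of Grb10 and Rasgrf1 did not follow 5-Aza-CdR, and genes unrelated to imprinting were high and low in the same libraries. The summed level of 4 Y-linked genes (Ddx3y, Kdm5d, Uty and Eif2s3y, chosen after their values were seen) was 6.46 CPM in total RNA with DMSO, 106 with ADAR1i-124 and 89.1 with 5-Aza-CdR. In J2 it was 56.6 CPM with DMSO, 2.71 with the inhibitor, 3.16 with 5-Aza-CdR and 9.60 when both were given. In Z22 it was 30.1, 13.9, 0.122 and 6.01 CPM, and in IgG 20.5. The 3 libraries with the highest Y-linked level were also the 3 with the most Grb10 and the most Rasgrf1. In the pairs with ADAR1i-124 in both libraries, where the Y-linked levels were 2.71 and 9.60 CPM in J2 and 13.9 and 6.01 CPM in Z22, Grb10 changed by 1.30 and −0.40 and Rasgrf1 by 1.89 and −0.07.

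Markers of other cells moved too. In total RNA the fibroblast gene Pdgfra had 5.23 CPM with DMSO, 25.4 with ADAR1i-124 and 150 with 5-Aza-CdR, and in J2 43.2, 4.17, 10.8 and 26.4 CPM. In total RNA with DMSO, the inhibitor and 5-Aza-CdR, Dcn had 0.411, 0 and 129 CPM, Col1a1 3.88, 3.58 and 43.995, and Lum 0, 0 and 1.01, so 4 of the 5 fibroblast markers were highest with 5-Aza-CdR. The fifth, Col3a1, had 1213, 130 and 859 CPM and made up most of the sum over the list, which was 1223, 159 and 1183 CPM in total RNA and 195 to 1199 CPM in the precipitated libraries. The 5 immune markers summed to 8.64, 19.9 and 77.0 CPM in total RNA, nearly all of it Cd68, while Ptprc reached 1.21 CPM at most and Cd3e and Adgre1 were at or near 0. The 3 endothelial markers summed to 4.06, 18.4 and 83.0 CPM in total RNA, nearly all Cdh5, and the 3 keratinocyte markers to 0.46 to 2.41 CPM in all 12 libraries. The part of these differences between libraries in the Grb10, Rasgrf1, Peg3 and Plagl1 results was not tested.

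**Figure D3:**
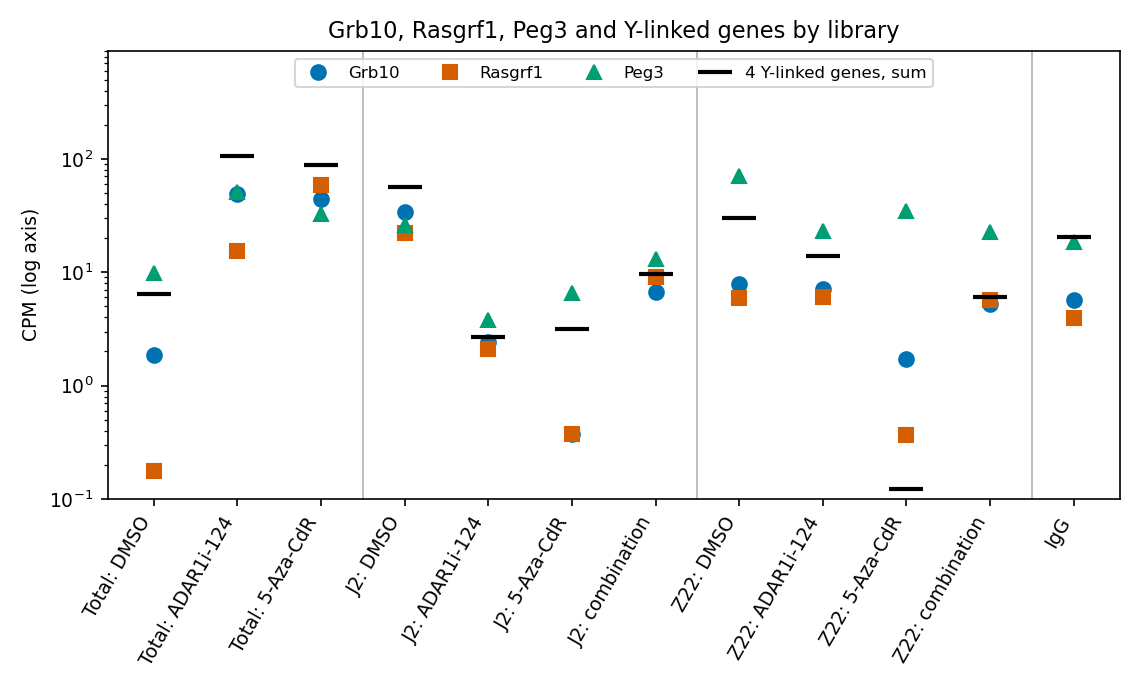
CPM on a log axis of Grb10, Rasgrf1 and Peg3 and the summed CPM of 4 Y-linked genes (black dashes) in the 12 libraries, 1 library each. In total RNA and J2 the points and the dashes are higher in total RNA with ADAR1i-124 and 5-Aza-CdR and in J2 with DMSO than in the other 4 libraries, but within these sets they do not keep 1 order (Rasgrf1 has 15.6 CPM and the dashes 106 in total RNA with ADAR1i-124, and 59.1 and 89.1 with 5-Aza-CdR).

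The members with the most RNA changed little with 5-Aza-CdR in total RNA. Per kb of exon, the total RNA levels with DMSO were highest for Igf2r (97.2 CPM per kb), Peg10 (71.7), Gnas (61.2) and Impact (21.1), and lowest among the tested 18 for Rasgrf1 (0.016). Kcnq1ot1, a 93.1 kb transcript annotated without introns, had 491 CPM, more than Peg10, but only 5.28 CPM per kb.

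Igf2r, the maternally read receptor that clears IGF2, and Airn, the paternally read RNA whose transcription through the Igf2r promoter silences it, overlap on opposite strands of chromosome 17 (chr17:12682406-12769664 and chr17:12741311-12860136). Igf2r had 905, 596 and 1113 CPM in total RNA with DMSO, ADAR1i-124 and 5-Aza-CdR, and Airn 25.8, 10.8 and 46.2, so both were lowest with ADAR1i-124 and highest with 5-Aza-CdR. The difference to DMSO was larger for Airn, with a ratio of 1.79 (1.61 to 1.99) against 1.23 (1.21 to 1.25) for Igf2r. In J2 with DMSO, the inhibitor, 5-Aza-CdR and the combination, Igf2r had 840, 470, 442 and 483 CPM and Airn 36.9, 15.2, 18.0 and 22.1, the DMSO library being the high one for both. Igf2r in Z22 had 531, 735, 875 and 618 CPM, and Airn 16.5, 16.2, 31.0 and 11.7, both highest with 5-Aza-CdR. Neither gene had 1 direction over the 5 pairs.

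Kcnq1ot1, the paternally read RNA that silences the Kcnq1 domain, was a little lower with 5-Aza-CdR in total RNA, with 491 CPM in DMSO and 365 with 5-Aza-CdR, a ratio of 0.743 (0.722 to 0.764), and had 556 CPM with ADAR1i-124. J2 had 343, 533, 284 and 484 CPM and Z22 140, 429, 638 and 443 with DMSO, the inhibitor, 5-Aza-CdR and the combination, with 177 in IgG. In J2 it was highest in the libraries given ADAR1i-124, alone or in the combination. Its Z22 value with 5-Aza-CdR was the highest of the 12, and its Z22 change against DMSO of 2.18 was 1.12 beyond the all-gene median of that pair. The other members of its domain stayed near 0, with Kcnq1 and Slc22a18 at 1 count each in total RNA with DMSO, Cdkn1c and Phlda2 at none, and 9 counts at most (Slc22a18) with 5-Aza-CdR.

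At the Peg10 locus, Peg10, a gene derived from a retrotransposon and read from the paternal copy, kept its level in total RNA with 478 CPM with DMSO, 397 with ADAR1i-124 and 462 with 5-Aza-CdR. It was lower in the precipitated RNA, with 54.3, 174, 147 and 225 CPM in J2, 40.2, 206, 163 and 142 in Z22 and 152 in IgG. The DMSO library was the lowest of each antibody, so its change with 5-Aza-CdR against DMSO was 1.43 in J2 and 2.01 in Z22 while it was −0.05 in total RNA. Sgce, which encodes epsilon-sarcoglycan and shares the Peg10 promoter region, had 50.3, 36.8 and 66.0 CPM in total RNA. It had 36.0, 26.1, 30.0 and 27.2 CPM in J2, 9.17, 27.1, 26.9 and 24.7 in Z22 and 35.8 in IgG, the Z22 library of DMSO being the lowest.

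Gnas, which encodes the stimulatory G protein subunit and whose nested transcripts differ in their parental copy, was the steadiest member. It had 684, 731 and 805 CPM in total RNA, 347, 313, 320 and 389 in J2, 298, 405, 426 and 491 in Z22, and 369 in IgG, and its range of change over the 5 pairs was 0.63, wider than in only 6% of all genes. Impact, the paternally read partner of the GCN2 pathway, had 108, 156 and 101 CPM in total RNA. In J2 it was higher in both libraries given 5-Aza-CdR (154 and 172 CPM) than in those without (89.0 and 59.9), and in Z22 likewise (137 and 131 against 24.1 and 69.3). Its total RNA did not show this, with a change of −0.10 (−0.18 to −0.02). The share of all genes with such an order in J2 and Z22 was not counted. The Z22 library of DMSO is the one that stood apart, and 52.1% of all genes were at least 2-fold higher in its pair.

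Ube3a, a ubiquitin ligase read from the maternal copy in neurons and from both elsewhere, had 302, 323 and 276 CPM in total RNA, 167, 251, 178 and 199 in J2, 26.6, 162, 142 and 139 in Z22, and 174 in IgG. Its single low value was that of the Z22 library of DMSO. Zrsr1 is a paternally read splicing factor gene that sits in an intron of Commd1 on the other strand, and Commd1 acts in copper handling. In total RNA Zrsr1 had 14.1, 8.12 and 19.96 CPM and Commd1 17.5, 8.57 and 9.34, and with 5-Aza-CdR against DMSO the pair went opposite ways, with a ratio of 1.42 (1.22 to 1.65) for Zrsr1 and 0.535 (0.456 to 0.629) for Commd1. Commd1 had the lowest ratio of the 18 members in total RNA. In J2 Zrsr1 had 23.8, 9.10, 14.5 and 15.8 CPM and Commd1 29.7, 19.5, 13.2 and 13.7. In Z22 Zrsr1 had 22.7, 11.7, 25.6 and 16.8 CPM and Commd1 13.9, 17.2, 13.1 and 18.5. IgG held 11.8 CPM of Zrsr1 and 21.3 of Commd1. Commd1 was lower with 5-Aza-CdR in 4 of 5 pairs, and Zrsr1 was higher in 4 of 5.

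The 18 tested members were also read by the parental copy that is known to be active, in classes too small to set apart from the 53.0% of all genes that were higher. In total RNA with 5-Aza-CdR, 5 of 8 genes read from the paternal copy at a maternally methylated region were higher, with a median of 0.44, and 3 of 4 genes classed as maternally read were higher, with a median of 0.80, where the lower gene was Ube3a, which is classed so for neurons only. Of the 5 genes that host an imprinted gene or isoform or whose transcripts differ in their parental copy, 4 were higher, with a median of 0.55, and Rasgrf1, the single tested gene read from the paternal copy at a paternally methylated region, had 6.46. In J2 against DMSO the medians of these classes in the same order were −0.47, −0.42, 0.35 and −4.68. The first 3 classes differed from each other by less than the spread of their own members in total RNA.

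The other members had 0 to 2 counts each in total RNA with DMSO, and more of them reached 3 counts with 5-Aza-CdR. Of the 21 genes with a mean under 1 CPM, 0 reached 3 counts with DMSO, 4 did with ADAR1i-124 and 12 with 5-Aza-CdR, while of the 40141 genes under 1 CPM 4234, 4231 and 7981 (10.55%, 10.54% and 19.9%) did. The 5-Aza-CdR library was the deepest, and scaled to the depth of DMSO 8 of the 21 (38.1%) had 3 counts or more, beside 12.5% of the genes under 1 CPM. Among genes with a count in any of the 12 libraries these were 8 of 18 members (44.4%), beside 25.6%. Dlk1, a paternally read ligand-like protein that holds back differentiation, had 0 counts with DMSO, 7 with ADAR1i-124 and 29 with 5-Aza-CdR, which is at least 4.76-fold higher with 5-Aza-CdR when 3 counts per library are taken as the limit in DMSO. Its neighbours Rian and Mirg, noncoding RNAs of the maternal copy, had 0 and 0 with DMSO and 13 and 15 with 5-Aza-CdR, at least 2.13-fold and 2.46-fold higher, and Meg3 had 1 and 4.

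Mest, a paternally read hydrolase-like protein, had 0, 32 and 22 counts with DMSO, ADAR1i-124 and 5-Aza-CdR, so that it was higher with ADAR1i-124 as well. Mkrn3, a paternally read ring finger protein, had 2, 8 and 29 counts, a ratio of 7.14 (1.81 to 61.7) for 5-Aza-CdR over DMSO. At the same locus, Snrpn reached 9 counts and Ndn 3 counts with 5-Aza-CdR and none with DMSO, and Magel2 had 0 counts in all 12 libraries. Usp29 had 2, 11 and 13 counts, Slc22a18 1, 1 and 9, Cdkn1c 0, 0 and 5, and H19 0, 0 and 4. In the same 3 libraries the Y-linked genes summed to 6.46, 106 and 89.1 CPM, the endothelial markers to 4.06, 18.4 and 83.0 CPM and the immune markers to 8.64, 19.9 and 77.0 CPM, and their part in the counts of the low members was not tested.

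Igf2, Zim1, Rtl1 and Phlda2 had 0 to 2 counts in each of the 12 libraries, Kcnq1 0 to 4 and Zdbf2 0 to 3, and Nnat and Nap1l5, like Magel2, had none. A count of 0 allows up to 0.176 CPM in total RNA with DMSO and 0.0868 CPM with 5-Aza-CdR. In the precipitated libraries the 21 genes together had 8 to 32 counts, with 7 at most for 1 gene (Mkrn3 in J2 with the combination). Changes of these genes in J2 and Z22 thus rest on very few counts. Mkrn3 in J2 had 1 count with ADAR1i-124, a ratio of 8.56 (1.10 to 386) for the combination.

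**Figure D4:**
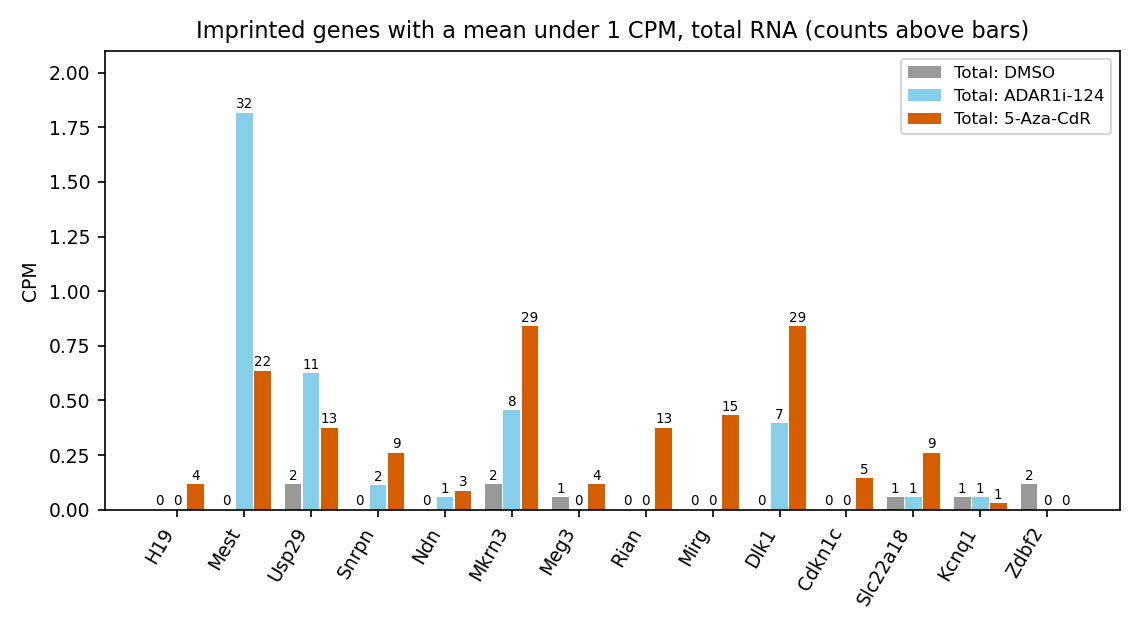
CPM in total RNA of the 14 imprinted genes that were under a mean of 1 CPM but reached 3 counts in at least 1 of the 12 libraries, 1 library per bar, with the count printed above each bar. Grey bars (DMSO) hold 0 to 2 counts, and the highest orange bars (5-Aza-CdR) are Dlk1 and Mkrn3 with 29 counts each, while the highest blue bar (ADAR1i-124) is Mest with 32.

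J2 and Z22 libraries were next set against IgG, as the log2 ratio of CPM + 0.5. All 8 ratios of a gene share the 1 IgG library, so they are not independent of each other. Airn, the antisense RNA of Igf2r, was highest against IgG in J2 with DMSO (2.22) and had 0.97, 1.21 and 1.50 with the inhibitor, 5-Aza-CdR and the combination. In Z22 it had 1.09, 1.06, 1.98 and 0.61. Its IgG level of 7.50 CPM was the lowest of the 12 libraries. Kcnq1ot1 had ratios of 0.95, 1.59, 0.68 and 1.45 in J2 and −0.34, 1.28, 1.85 and 1.32 in Z22, and with ADAR1i-124 it was above 98.5% of all genes in J2 and above 96.4% in Z22. In the Z22 library of DMSO its ratio of −0.34 was still 0.49 above the median of all genes.

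Ppp1r9a was the third member on this side, with 1.27, 0.54, 1.45 and 1.66 in J2 and 0.84, 0.68, 1.65 and 1.29 in Z22. Sgce and Commd1 were at the other end, with −0.45 to 0.01 and −0.66 to 0.47 in J2, and −1.91 to −0.39 and −0.68 to −0.20 in Z22. The median of the 18 members in J2 was 0.47 with DMSO, −0.27 with the inhibitor, −0.01 with 5-Aza-CdR and 0.49 when both were given, beside −0.00, −0.01, 0.05 and 0.13 over all genes. In Z22 the medians were −0.32, 0.12, 0.69 and 0.44, beside −0.83, −0.05, 0.18 and 0.01. With total RNA as the reference, the median of the members was lower in each of the 6 libraries with such a match, for example −0.16 in J2 with DMSO and −0.99 with 5-Aza-CdR, beside −0.36 and −0.37 over all genes. Single members went either way, and Grb10 in J2 with DMSO was higher against total RNA (3.86) than against IgG (2.47). Airn had 0.51 in J2 with DMSO, 0.48 with ADAR1i-124 and −1.34 with 5-Aza-CdR, and Kcnq1ot1 had −0.52, −0.06 and −0.36. Kcnq1ot1 in Z22 with 5-Aza-CdR stayed above its total RNA, by 0.81 (0.76 to 0.85). Peg10 in J2 lay below its total RNA, at −3.13 with DMSO, the lowest of the 18 members there, −1.19 with ADAR1i-124 and −1.65 with 5-Aza-CdR.

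**Figure D5:**
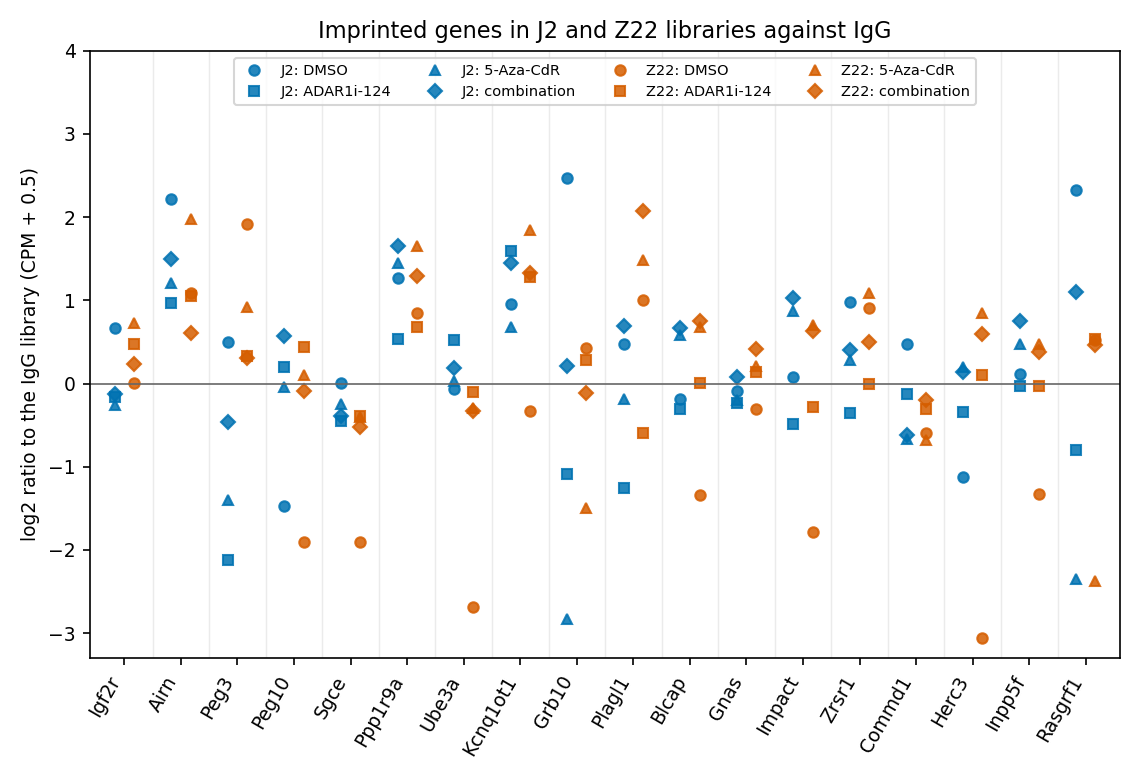
Log2 ratio (CPM + 0.5) of each J2 library (blue) and Z22 library (orange) to the IgG library for the 18 tested imprinted genes, 1 point per library, with the treatment given by the shape. Airn and Ppp1r9a lie above 0 throughout, Kcnq1ot1 does in all but Z22 with DMSO (−0.34), and Grb10 and Rasgrf1 spread from under −2 to above 2.

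ADAR1i-124 alone was also set against DMSO in total RNA, and since this comparison and that of 5-Aza-CdR share the DMSO library, their values are not independent. Against DMSO, 4 of the 18 members were at least 4-fold higher with ADAR1i-124 (1.88% of all genes), and no member was at least 4-fold lower (2.05%). They were Rasgrf1 with 4.57, Grb10 with 4.39, Peg3 with 2.33 and Plagl1 with 2.24, where 5-Aza-CdR gave 6.46, 4.23, 1.67 and 1.13. At the 2-fold line Blcap was also higher (5 of 18, beside 7.71% of all genes), with 1.01 where 5-Aza-CdR gave 1.14, and Airn was lower (1 of 18, beside 8.70%), with −1.22 where 5-Aza-CdR gave 0.83. The median was 0.09, beside −0.09 over all genes. The summed level of the Y-linked genes given above was high in both treated libraries and low in the DMSO library. Of these genes, Eif2s3y had 0 CPM with DMSO and with ADAR1i-124 and 2.02 CPM with 5-Aza-CdR.

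A further 42 imprinted genes outside the 39 were counted in the same way. Of these 23 passed 1 CPM in total RNA, with 3 at least 4-fold higher in the 5-Aza-CdR library and 0 lower (5.98% and 1.76% of all genes), and their median was 0.23, beside 0.06. These genes were Snhg14, Ano1 and Qpct, and Snhg14 entered only through the 5-Aza-CdR library, so its rise was set by the filter. Snhg14, the long host transcript of small nucleolar RNAs that runs from the Snrpn region towards Ube3a, had 0 counts in total RNA with DMSO and with ADAR1i-124 and 645 with 5-Aza-CdR, at least 106-fold above the 3-count limit of DMSO. In J2 it had 4, 1, 322 and 233 counts and in Z22 1, 1, 105 and 134 with DMSO, the inhibitor, 5-Aza-CdR and the combination, and IgG had 6. All 5 libraries given 5-Aza-CdR thus lay above 100 counts and the other 7 at 6 or fewer. Of its neighbours among the members, Mkrn3, Snrpn and Ndn had 29, 9 and 3 counts in total RNA with 5-Aza-CdR, the deepest library, and 2, 0 and 0 with DMSO, while Ube3a changed by −0.13.

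Ano1, a chloride channel imprinted in placenta, had 1.41, 6.64 and 20.7 CPM in total RNA, 2.79, 0.972, 8.87 and 7.39 in J2 and 1.37, 3.41, 17.4 and 6.67 in Z22, so it was higher with 5-Aza-CdR in each of the 5 pairs by 0.87 to 3.47. Qpct, an enzyme that forms pyroglutamate, had 9.64, 14.8 and 47.8 CPM in total RNA and 16.6, 4.65, 16.2 and 18.3 in J2, where the change in the pair with DMSO was −0.04. In Z22 it had 5.16, 16.2, 27.9 and 26.8 CPM, so it was higher with 5-Aza-CdR in 4 of 5 pairs, and IgG had 30.9.

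Of 20 genes that keep or erase imprints, 17 passed 1 CPM in total RNA, and in the 5-Aza-CdR library 1 of them was higher and 4 were lower by the 2-fold line or more (17.0% and 8.96% of all genes), with a median of −0.20, beside 0.06. Hells, a chromatin remodeller needed for DNA methylation, had 157, 140 and 44.2 CPM in total RNA and a change of −1.82 (−1.92 to −1.74). Uhrf1, the partner of DNMT1, had 171, 199 and 56.8 CPM and a change of −1.58 (−1.67 to −1.51). Both were lower with the combination than with ADAR1i-124 alone too, by −1.70 and −1.81 in J2 and −1.99 and −2.23 in Z22. Against DMSO they were higher with 5-Aza-CdR in both antibodies, by 0.35 and 0.51 in J2 and 1.92 and 2.03 in Z22, so their direction was not the same in all pairs.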

How the data were processed

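Total RNA and RNA precipitated with J2, Z22 or IgG from Yumm1.7 cells gave 13 libraries, 1 per condition, of which 12 were used. The authors aligned reads with STAR in the snakePipes pipelines to GRCm38 (mm10) and deposited raw counts per gene. The strand setting of the counting is not given in the sources used here. In total RNA with DMSO, Kcnq1 had 1 count where the overlapping Kcnq1ot1 had 8362, and Nnat had 0 where Blcap had 583. The counts of these pairs thus followed the strand. Sharing of reads between Igf2r and Airn or between Zrsr1 and Commd1 was not tested. Identifiers were matched without version to GENCODE M21, and all 39 genes were found.

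Counts were divided by the library total, which lets 1 abundant RNA lower all others, and 0.5 CPM was added before log2. Genes were compared where their mean over the libraries compared reached 1 CPM. Each condition has 1 library, so differences were described and not tested, and the 5 pairs, which mix 3 kinds of RNA, were not taken as replicates. The fold calculation was checked on simulated counts with seed 7. Genes were named by rule: all members, and the 5 imprinted or imprint-maintenance genes with the largest change in total RNA with 5-Aza-CdR. Members and lists were chosen with earlier results of these data known. The classes by parental copy came from general knowledge of these loci. Alternatives were edgeR 4.0.16 TMM and DESeq2 1.42.0 factors (R 4.3.3), totals without the 20 top genes, pseudocounts of 0.1 and 2 CPM, filters and a 2-fold line. Python 3.11.15, pandas 2.3.3 and scipy 1.17.1 were used.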

Additional observations from a re-analysis of the deposited data

Results flagged for a closer look

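The 3 members Grb10, Rasgrf1 and Peg3 changed in opposite directions in total RNA and J2 with the same 5-Aza-CdR treatment, and the differences were not tested, since each pair is 1 library against 1. Grb10 changed by 4.23 in total RNA, −5.30 in J2 against DMSO and 1.30 in J2 beside ADAR1i-124. Rasgrf1 changed by 6.46, −4.68 and 1.89 in the same comparisons. Peg3 changed by 1.67, −1.90 and 1.66. The summed level of the Y-linked genes differed between these libraries in the same direction and is given in the report. Eif2s3y alone went from 0 to 0.150 CPM in J2 against DMSO. The part of the Y-linked genes in these results was not tested.

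In the total RNA library of the combination, which was left out, 4 members that had under 3 counts with DMSO were read well above that. Nnat had 357 counts, Mest 100, Kcnq1 39 and Nap1l5 15. Each has an expressed gene on the opposite strand, which had 583 counts (Blcap), 1019 (Copg2), 8362 (Kcnq1ot1) and 374 (Herc3) in the DMSO library, while Blcap itself had 2 counts and Herc3 0 in the combination library.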

How the results depend on the processing

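Each value above is 1 library against 1, so errors cover counting only, and the scaling matters most in the Z22 pair of 5-Aza-CdR and DMSO. There the number of members at least 4-fold higher was 1 with TMM factors, 1 with DESeq2 factors, 1 with totals without the 20 top genes and 1 after centring on the median of all genes (chosen after seeing the data), against 6. The number at least 4-fold lower was 2, 3, 2 and 3 under these settings, 2 with a pseudocount of 0.1 CPM, and 0 with 2 CPM or a 5 CPM filter, against 1. The median was −0.10 with TMM factors, −0.21 with DESeq2 factors and −0.21 after centring, against 0.85, as the DMSO library has an effective size well under its total. Igf2r, Airn, Ppp1r9a, Plagl1, Gnas and Zrsr1 turned sign in that pair under these 3 settings, and Ppp1r9a then left the 4 members higher in every pair. At a 2-fold line the counts were 7 higher in total RNA with 5-Aza-CdR, 2 higher and 5 lower in J2, 6 higher in J2 beside ADAR1i-124, 3 lower in Z22 and 1 lower in total RNA with ADAR1i-124. With a pseudocount of 0.1 CPM, 2 members were at least 4-fold higher in J2 beside ADAR1i-124, against 0, and Plagl1 was no longer 4-fold higher in Z22 beside ADAR1i-124 with 2 CPM or a 5 CPM filter, which left 0. Against total RNA in place of IgG, the medians were −0.16 in J2 with DMSO, −0.99 in J2 with 5-Aza-CdR, −0.66 in Z22 with ADAR1i-124 and −0.62 in Z22 with 5-Aza-CdR, and the median of Z22 with DMSO against IgG turned from −0.32 to 0.31 with TMM factors. The other 187 values of this kind were counted as unmoved. Of 648 values of single genes 114 were counted as moved, and 27 turned sign, none with a change of 2-fold or more. Every replicate number is 1, so libraries could not be paired by replicate. A model of the 5 pairs with the kind of RNA as a term was not run.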
